A study of Arabidopsis thaliana with 16 samples.

Results

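The expression of 9 Arabidopsis genes of stamen maturation and anther opening was followed through pre-mitotic flower buds of 2 genotypes in 2 light levels. They were taken by locus and not by a measured value, though earlier results of these data were known when they were chosen. They are the MYB genes MYB21 (AT3G27810), MYB24 (AT5G40350), MYB57 (AT3G01530), MYB108 (AT3G06490) and MYB26 (AT3G13890). The others are the NAC genes NST1 (AT2G46770) and NST2 (AT3G61910), and the polygalacturonase genes ADPG1 (AT3G57510) and ADPG2 (AT2G41850). All 9 are among the 33681 genes in the deposited tables. Only 3 of them, MYB26, NST1 and MYB108, were among the 21309 genes that reached 1 CPM (a count scaled to library size) in at least 1 library and were tested. The other 6 are given by their counts.

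The study compared wild-type Columbia (Col-0) with bhlh89,91, a double T-DNA mutant made by crossing the lines SALK-123106 and GK-345C06, a single allele combination in which both insertions lie in the first exon of their gene. From the onset of flowering, plants of each genotype stood either in normal light (205 ± 8.6 µmol m-2 s-1, SD) or under net shading in low light (53 ± 5 µmol m-2 s-1, SD), which the labels round to 200 and 50. Each of the 4 groups holds 4 libraries, labelled biological replicates, of poly-A RNA from whole flowers with anthers before pollen mitosis I, spanning anther stages 1 to 10. Libraries are named here by group and by column number (1 to 4) in the deposited tables, because these numbers do not match the replicate numbers of the labels.

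An anther opens in several steps, and these genes serve different ones. Jasmonate, a lipid hormone, releases MYB21, MYB24 and MYB57 from JAZ repressors, and these MYB factors then drive filament growth and the last steps of stamen maturation, with MYB108 acting alongside MYB24. MYB26 is needed for the lignified bands of secondary wall in the endothecium, the anther layer whose bending opens the pollen sac, and it acts upstream of the redundant NAC factors NST1 and NST2. ADPG1 and ADPG2 encode endo-polygalacturonases, which cut the pectin between cells that must separate for the anther to split. BHLH89 and BHLH91 are related basic helix-loop-helix factors of the tapetum, the inner layer that feeds the pollen.

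The 250 bases upstream of the annotated gene start are shown for the 4 genes on which the results turn, MYB26, NST1, MYB108 and ADPG1, because the mutated factors belong to a family that binds the E-box. They are from the RefSeq annotation of TAIR10.1, run 5′ to 3′ on the strand of the gene, and capitals mark every E-box match (CANNTG, which reads the same on both strands).
MYB26, chr3:4578083-4578332, minus strand: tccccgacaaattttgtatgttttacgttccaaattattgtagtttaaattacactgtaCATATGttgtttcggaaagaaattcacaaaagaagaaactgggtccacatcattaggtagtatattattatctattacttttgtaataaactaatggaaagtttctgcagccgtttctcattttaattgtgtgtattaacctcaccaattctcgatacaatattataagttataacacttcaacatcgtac
NST1, chr2:19222917-19223166, minus strand: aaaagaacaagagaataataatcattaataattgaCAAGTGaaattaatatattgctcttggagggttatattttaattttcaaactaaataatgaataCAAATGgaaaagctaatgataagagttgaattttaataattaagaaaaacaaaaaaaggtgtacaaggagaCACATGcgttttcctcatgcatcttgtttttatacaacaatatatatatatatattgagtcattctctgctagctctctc
MYB108, chr3:2003143-2003392, plus strand: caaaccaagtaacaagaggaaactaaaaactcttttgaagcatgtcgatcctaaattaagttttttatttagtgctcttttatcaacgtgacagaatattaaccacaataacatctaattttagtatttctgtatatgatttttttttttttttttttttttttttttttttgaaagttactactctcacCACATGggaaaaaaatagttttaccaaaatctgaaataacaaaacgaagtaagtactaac
ADPG1, chr3:21285942-21286191, minus strand: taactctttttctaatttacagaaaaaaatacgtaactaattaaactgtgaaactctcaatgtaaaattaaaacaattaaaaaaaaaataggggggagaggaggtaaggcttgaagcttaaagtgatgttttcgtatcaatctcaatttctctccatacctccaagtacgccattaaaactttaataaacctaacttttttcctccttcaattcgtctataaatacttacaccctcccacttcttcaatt
The MYB26 window holds 1 match, which begins 191 bases before the gene start. NST1 has 3 matches, beginning 215, 151 and 80 bases before its start, and MYB108 has 1, beginning 60 bases before. No match lies in the ADPG1 or ADPG2 window. Over the windows of 27443 protein-coding genes, 55.3% hold at least 1 CANNTG, so a match is common, and the G-box form CACGTG, which 6.49% of windows hold, is in none of the 4 shown. A match is a run of letters and was not tested as a binding site.

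Library totals ran from 20419619 to 23346158 estimated counts, and replicate pairs of a group correlated at r = 0.973 to 0.992 (24 pairs, log scale, across genes), each pair differing by more than sampling noise. In the targeted genes, BHLH89 averaged 45.9 ± 4.73 TPM (a level scaled for transcript length and library size) in Col-0 and 22.3 ± 2.57 in bhlh89,91 in normal light (SD, n = 4), with 29.6 ± 2.17 and 15.7 ± 3.52 in low light, and the 4 mutant libraries lay below the 4 Col-0 libraries in each light level. BHLH91 averaged 30.1 ± 3.57 and 22.8 ± 1.83 TPM in normal light, and 22.2 ± 1.27 and 17.1 ± 3.64 in low light, and both genes were called as lower in the mutant in each light level. Transcripts of both genes thus remained in the mutant, and the gene totals do not show which end of a transcript the reads came from. By qRT-PCR on inflorescences in normal light, the study reported a stronger loss of both transcripts in this mutant, most of all of BHLH91. Markers of young anthers were high and those of late pollen low: summed TPM of 5 tapetum genes was 635 to 1647 over the 16 libraries and that of 2 meiocyte genes 24.5 to 50.9, whereas 6 late pollen genes summed to only 1.53 to 24.3. In whole buds, fewer cells of a type and less RNA per cell cannot be told apart.

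The 9 genes spanned a wide range of levels in these buds. MYB26 was the highest, at a mean of 10.4 TPM over the 16 libraries, above 59.4% of all genes in the tables. NST1 followed at 1.37 TPM and MYB108 at 0.450 TPM. ADPG1 (0.162 TPM), NST2 (0.0767), MYB21 (0.0714) and MYB24 (0.0210) came next, and MYB57 (0.00259) and ADPG2 (0.00210) had 1 estimated count each in all 16 libraries together. Since TPM is corrected for length, these levels can be set side by side. MYB26 exceeded NST1 in every library, by a ratio of TPM between 2.75 and 12.9 with a median of 7.78. Neighbours lower in the order overlapped: NST2 and MYB21, for example, each ranged from 0 to about 0.5 TPM between libraries.

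**Figure D1:**
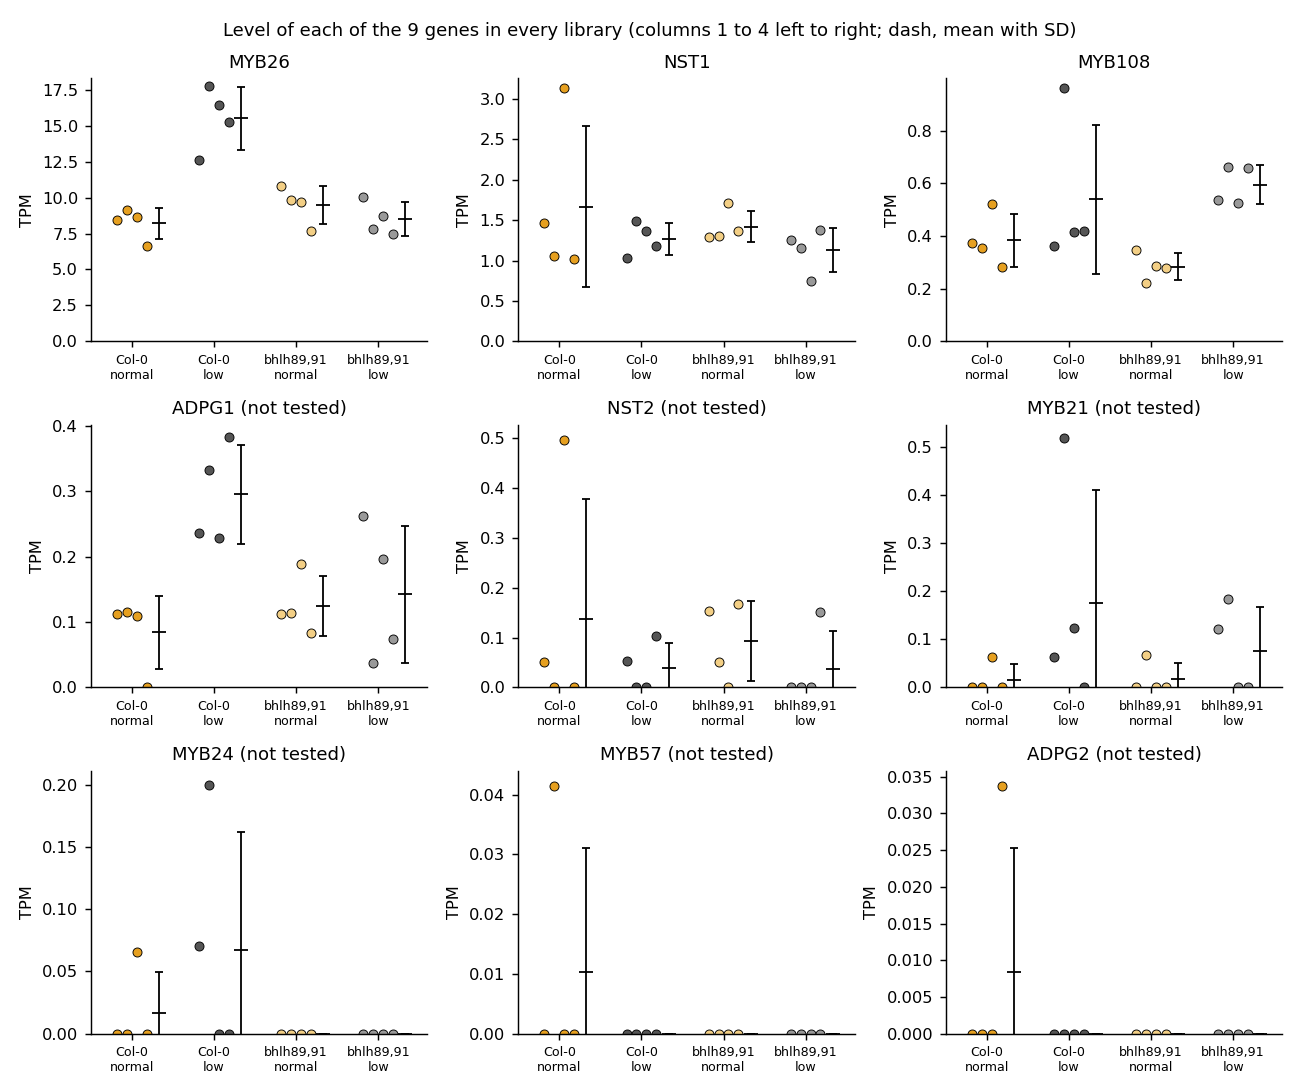
TPM of each of the 9 genes (vertical axes, each panel with its own scale from 0) in the 4 libraries of each group (horizontal axis, columns 1 to 4 left to right), with the group mean and SD as a dash and bar. MYB26 in Col-0 low light (12.6 to 17.7 TPM) stands above all other libraries, and the 6 genes marked as not tested stay at or below 0.517 TPM.

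MYB26, the endothecium regulator, rose in low light in Col-0 and not in bhlh89,91. In Col-0 its level was 8.41, 9.13, 8.62 and 6.65 TPM in normal light (columns 1 to 4). In Col-0 low light it was 12.6, 17.7, 16.5 and 15.3 TPM. All 4 low-light libraries lay above all 4 normal-light libraries, and the lowest of them exceeded every library of the other 3 groups. The first separation, in that direction, was seen in 20.5% of the 29032 genes with any count. The share for the separation from all 3 groups was not computed. In the mutant the MYB26 values were 10.8, 9.81, 9.67 and 7.65 TPM in normal light. In mutant low light they were 10.1, 7.80, 8.69 and 7.47 TPM, so the mutant groups overlapped each other.

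Group means put these values at 8.20 ± 1.08 TPM in Col-0 normal light and 15.5 ± 2.19 in Col-0 low light (SD, n = 4). The corresponding means in bhlh89,91 were 9.48 ± 1.32 and 8.51 ± 1.16 TPM. MYB26 in low light was thus at 189% of its normal-light mean in Col-0 and at 89.7% in the mutant.

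Each comparison was tested in edgeR (quasi-likelihood F test), p-values were adjusted after Benjamini and Hochberg across the 21309 genes, and a gene was called where the adjusted p was under 0.05. The log2 fold change (log2FC) of MYB26 with low light in Col-0 was 0.93 ± 0.13 (SE; adjusted p = 1.83e-05). It was the only one of the 3 tested genes called there, in a comparison in which 29.1% of all tested genes were called as higher and 28.9% as lower. A call in this comparison is therefore common. In bhlh89,91 the log2FC of MYB26 was -0.14 ± 0.13 (edgeR adjusted p = 0.444), with a 95% interval from -0.43 to 0.15, which lies below the Col-0 value. There 16.7% of tested genes were called as higher and 16.6% as lower.

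The difference between the 2 light responses was itself tested. The MYB26 response in bhlh89,91 was lower than in Col-0 by an interaction log2FC of -1.07 ± 0.18 (edgeR adjusted p = 0.000966), a term in which 11.9% of tested genes were called as higher and 11.1% as lower. This passed the limits that the study set for a differentially expressed gene (an adjusted p below 0.01 and at least a 2-fold change), which the Col-0 light response did not reach in size. Between genotypes, MYB26 differed by 0.22 ± 0.13 in normal light (log2FC, edgeR adjusted p = 0.268), and was not called. It was lower in the mutant in low light, by a log2FC of -0.85 ± 0.13 (edgeR adjusted p = 7.46e-05). Every mutant library lay below every Col-0 library there, a separation whose share over all genes was not computed. In the genotype comparisons, 9% of tested genes were called as higher and 7.66% as lower in the mutant in normal light, and 25.1% and 24.3% in low light. Every call of MYB26 held with each library left out in turn and under each alternative method that was run.

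**Figure D2:**
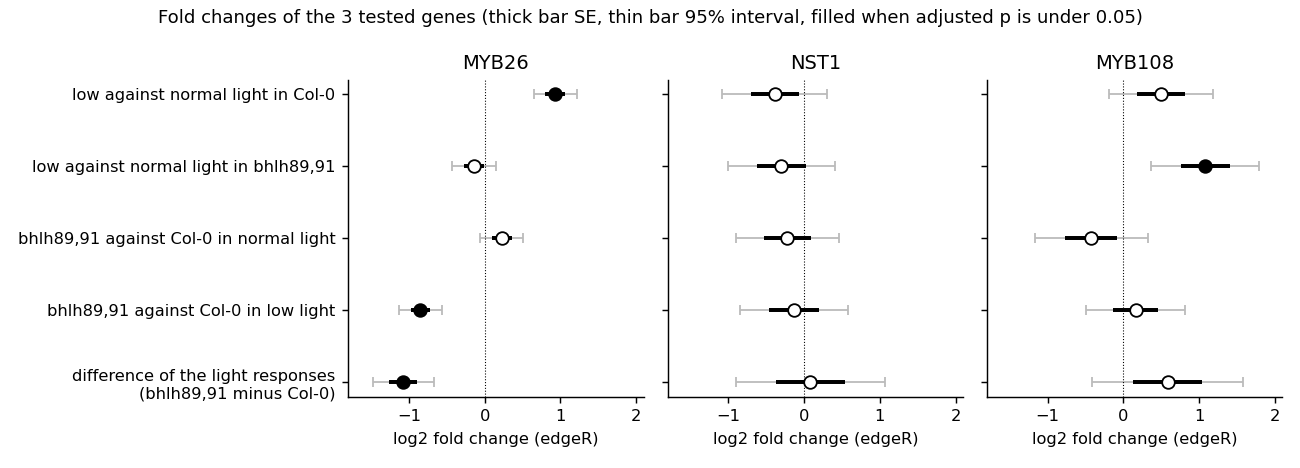
Log2 fold changes (horizontal axes, edgeR) of MYB26, NST1 and MYB108 in the 5 comparisons (rows), with the SE as a thick bar and the 95% interval as a thin bar, filled where the adjusted p was under 0.05. MYB26 is filled at 0.93 in Col-0 light, at -0.85 between genotypes in low light and at -1.07 for the difference of the light responses, MYB108 is filled only for light in bhlh89,91 (1.08), and no NST1 point is filled.

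Markers of other anther layers also differed between these groups. Summed tapetum TPM was 1356 to 1647 in Col-0 normal light and 635 to 1003 in Col-0 low light, against 924 to 1553 and 680 to 1297 in the mutant. Of the 5 tapetum markers, 4 fell with low light in Col-0 and 1 in bhlh89,91. Over all tested genes, 29.1% rose and 28.9% fell in Col-0, and 16.7% rose and 16.6% fell in the mutant. Both meiocyte markers, DMC1 and SDS, fell in each genotype, with summed TPM of 42.4 to 46.7 and 24.5 to 27.5 in Col-0 and 43.8 to 50.9 and 34.4 to 40.1 in the mutant. Of the petal and stamen identity genes AP3 and PI, both also fell in each genotype. Late pollen markers, by contrast, summed to 3.83 to 24.3 TPM in Col-0 normal light and 5.67 to 9.92 in Col-0 low light, with 1 of 6 called as higher and 1 as lower. In bhlh89,91 they summed to 3.31 to 6.16 and 1.53 to 13.5 TPM, with none called for light. Against Col-0, 2 of the 6 were called as lower in the mutant in normal light and 1 in low light, and none as higher. Over all tested genes, 7.66% and 24.3% were called as lower there, and 9% and 25.1% as higher. Markers that responded differently by genotype were the tapetum factor TDF1 (interaction log2FC 0.70, edgeR adjusted p = 0.0347), DMC1 (0.49, 0.00157), AP3 (0.22, 0.0302) and the carpel factor SPT (-0.28, 0.0336). Of the 4 carpel and ovule markers, 3 rose and none fell with low light in each genotype. In Col-0, MYB26 thus moved against the tapetum, meiocyte and AP3 markers and in the same direction as most carpel and ovule markers. The part of bud composition in the MYB26 rise was not tested.

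Of the regulators listed upstream of these genes, ARF17, an auxin response factor known in Arabidopsis to regulate MYB108 in anther dehiscence, also rose in low light in Col-0. It measured 28.2, 26.0, 26.5 and 21.0 TPM in Col-0 normal light and 48.1, 45.5, 41.8 and 50.8 TPM in Col-0 low light. The groups did not overlap, which was a condition for naming the gene, and the log2FC was 0.88 ± 0.14 (edgeR adjusted p = 4.7e-05). In bhlh89,91, ARF17 was 32.4, 34.3, 34.6 and 24.0 TPM in normal light and 41.0, 28.5, 41.0 and 28.3 TPM in low light, groups that overlap. The interaction log2FC of ARF17 was -0.72 ± 0.19 (edgeR adjusted p = 0.0138), so it too responded less to low light in the mutant. This gene is 1 of 9 upstream regulators of stamen development that were listed, all tested. In Col-0, 1 rose with low light and 3 fell, and in bhlh89,91, 2 rose and 2 fell. The shares of all tested genes that rose and fell were 29.1% and 28.9% in Col-0 and 16.7% and 16.6% in the mutant. ARF8, which with ARF6 promotes jasmonate production and stamen growth, fell from 82.9 ± 7.91 to 54.2 ± 2.90 TPM in Col-0 (SD, n = 4; log2FC -0.60 ± 0.05, edgeR adjusted p = 2.56e-07). In the mutant its fall was smaller, from 93.4 ± 3.06 to 78.9 ± 3.98 TPM, and the difference of the responses was 0.38 ± 0.08 (log2FC, edgeR adjusted p = 0.00254). RGL1, a DELLA repressor of gibberellin signalling, fell by 0.71 on the log2 scale in Col-0 and by 0.50 in bhlh89,91 (edgeR adjusted p = 0.000621 and 0.0126).

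Over all tested genes with a mean of at least 5 CPM, the 2 whose levels followed MYB26 most closely over the 16 libraries were AT3G23840 (Pearson r = 0.961 of log2-CPM) and NAC2 (AT3G15510, r = 0.959). Within groups, after subtracting each group mean, these values were 0.763 and 0.803. All 16 points share the libraries and their group differences, and the 2 were picked as the highest of 16419 genes compared, so r is a description. AT3G23840 averaged 139 ± 17.7 TPM in Col-0 normal light and 322 ± 18.5 in Col-0 low light (SD, n = 4). In the mutant it averaged 168 ± 32.5 and 144 ± 20.2 TPM. NAC2, a NAC transcription factor, averaged 4.16 ± 1.47 and 26.4 ± 8.36 TPM in Col-0, and 6.03 ± 2.72 and 3.74 ± 0.981 TPM in bhlh89,91. In all 3 genes the Col-0 low-light libraries stood above the rest, with log2FCs of 0.93 for MYB26, 1.22 for AT3G23840 and 2.68 for NAC2.

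**Figure D3:**
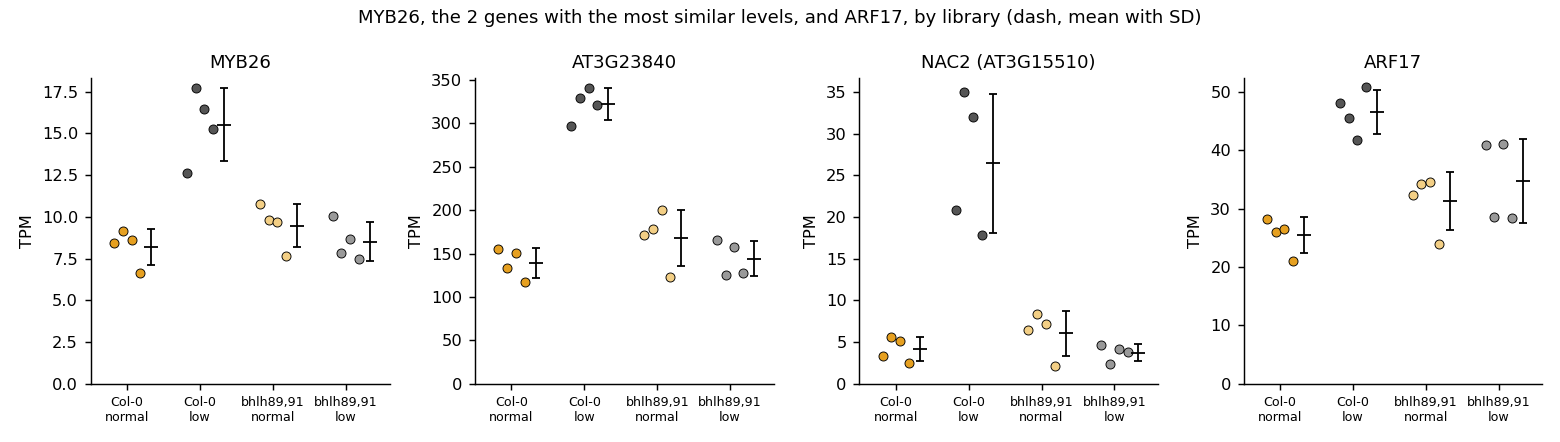
TPM (vertical axes from 0) of MYB26, AT3G23840, NAC2 and ARF17 in the 4 libraries of each group, with mean and SD as a dash and bar. In each panel the 4 Col-0 low-light points lie above all other libraries, by the widest ratio in NAC2 (26.4 against 4.16 TPM in Col-0 normal light).

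NST1, the NAC factor downstream of MYB26 that switches on secondary wall genes, was not called in any comparison. Its level in Col-0 normal light was 1.46, 1.05, 3.13 and 1.02 TPM, and in Col-0 low light it was 1.03, 1.49, 1.36 and 1.18 TPM. In the mutant it was 1.30, 1.31, 1.71 and 1.37 TPM in normal light and 1.25, 1.16, 0.745 and 1.38 TPM in low light. Column 3 of Col-0 normal light stood apart, at more than any other library, and the remaining 15 libraries lay between 0.745 and 1.71 TPM with overlapping groups. The log2FC with low light was -0.39 ± 0.32 in Col-0 (edgeR adjusted p = 0.308) and -0.30 ± 0.32 in bhlh89,91 (0.503). Without column 3 of Col-0 normal light the Col-0 value turned to 0.12, and the difference between genotypes in normal light turned from -0.22 ± 0.31 to 0.28, neither of them called. The interval of the Col-0 response, -1.08 to 0.30, does not reach the MYB26 value of 0.93 but takes in falls larger than a log2FC of -1, so a modest change of NST1 was not detectable at 16 to 72 counts a library.

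NST2, which shares the wall-thickening role of NST1 in anthers, had 24 estimated counts in the 16 libraries. Its counts were 1, 0, 10 and 0 in Col-0 normal light, and 1, 0, 0 and 2 in Col-0 low light. In bhlh89,91 they were 3, 1, 0 and 3 in normal light and 0, 0, 0 and 3 in low light. The 10 counts of Col-0 normal light column 3 are the most of any library, and they are in the library that is also highest in NST1. That library had the largest late pollen sum of the 16 too, 24.3 TPM, against 1.53 to 13.5 TPM in the rest, while its sum of 8 secondary wall enzymes, 85.9 TPM, lay within the 74.6 to 88.4 TPM of its group. Whether later buds were present in it was not tested.

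No listed gene of secondary wall formation was called as higher in low light in either genotype. Over all tested genes, 29.1% were called as higher and 28.9% as lower in Col-0, and 16.7% and 16.6% in bhlh89,91. Of 10 listed regulators of this wall programme, 7 were tested (NST3, MYB103 and MYB85 stayed under 1 CPM in every library), and with low light in Col-0 none rose and 3 fell, MYB58, MYB83 and KNAT7, a count that ran from 0 to 3 with single libraries left out. The fall of MYB83, a master switch of the programme beside MYB46, was -0.75 ± 0.31 (log2FC, edgeR adjusted p = 0.0485), and that of MYB46 itself, -0.39 ± 0.21, was not called (0.127). In bhlh89,91, none rose and 1 fell, and the median log2FC of these 7 genes was -0.39 (Col-0) and -0.38 (mutant), against -0.0072 and -0.0012 over all tested genes. Of 8 wall enzymes, all tested, 5 fell and none rose in each genotype, and with single libraries left out 5 fell in Col-0 and 3 to 5 in the mutant. Their summed level was 74.6 to 88.4 TPM in Col-0 normal light and 60.4 to 71.1 in Col-0 low light, groups that do not overlap, and 99.7 to 110 and 68.3 to 80.1 TPM in bhlh89,91.

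Among the enzymes, IRX6, a COBRA-like protein of secondary walls, fell from 4.65 ± 0.631 to 2.94 ± 0.248 TPM in Col-0 (SD, n = 4; log2FC -0.65 ± 0.12, edgeR adjusted p = 0.00018). Cellulose synthase subunits of the secondary wall fell with it: CESA8 by 0.61 and CESA4 by 0.44 on the log2 scale (edgeR adjusted p = 0.000307 and 0.00441). In the mutant, IRX6 fell by 0.44 and CCR1, an enzyme of lignin synthesis, by 0.56 (edgeR adjusted p = 0.0074 and 6.17e-06). CCR1 was also higher in the mutant than in Col-0 in normal light, at 72.5 ± 2.84 against 50.8 ± 2.87 TPM (log2FC 0.52 ± 0.06, edgeR adjusted p = 4.12e-05), and its light response differed between genotypes by -0.25 ± 0.08 (adjusted p = 0.0421, and up to 0.0964 with single libraries left out). These genes also act in vascular tissue, and whole buds do not show in which cells they were read.

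MYB108, which acts with MYB24 in jasmonate-driven stamen maturation, rose in low light in bhlh89,91 at a low level. In the mutant it had 11, 7, 9 and 8 estimated counts in normal light (0.346, 0.222, 0.285 and 0.278 TPM). In mutant low light it had 17, 21, 16 and 21 counts (0.535, 0.662, 0.525 and 0.657 TPM), and the groups do not overlap. The share of all genes with such a separation in the mutant was not computed. The log2FC of MYB108 was 1.08 ± 0.33 (edgeR adjusted p = 0.0183), short of the study's limit of 0.01. MYB108 was 1 of 3 tested genes called in this comparison, where 16.7% of all tested genes were called as higher and 16.6% as lower, so 1 of 3 is near the background. Without bhlh89,91 normal light column 2, its log2FC was 0.99 with an adjusted p of 0.0521, so the call rests on that library.

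In Col-0 the counts of MYB108 were 12, 11, 17 and 9 in normal light and 11, 31, 13 and 13 in low light. Column 2 of low light was far above the others and the groups overlapped, with a log2FC of 0.50 ± 0.32 (edgeR adjusted p = 0.188). The difference of the 2 light responses, 0.58 ± 0.46, was not called (adjusted p = 0.383), so a response of MYB108 particular to the mutant was not shown. MYB108 passed the filter on low values only through that 1 library, and without it the gene was not tested.

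MYB21, MYB24 and MYB57, the jasmonate-released factors of late stamen growth, were at or near the floor. MYB21 counts were 0, 0, 1 and 0 in Col-0 normal light and 1, 8, 2 and 0 in Col-0 low light. In bhlh89,91 they were 0, 1, 0 and 0 in normal light and 2, 3, 0 and 0 in low light. Low light thus held 11 of the 12 Col-0 counts and 5 of the 6 mutant counts, but 8 of the 11 were in column 2 of Col-0 low light, the library highest in MYB108. The pooled Col-0 ratio, scaled by library totals, was 11.1, with an exact 95% counting interval from 1.61 to 476 that leaves out the spread between libraries, and in an edgeR fit of 29032 genes without the filter the adjusted p was 0.0713. MYB24 had 5 counts, 1 in Col-0 normal light column 3 and 1 and 3 in columns 1 and 2 of Col-0 low light. It was 0 in all 8 mutant libraries, and 3 counts correspond to 0.147 CPM in the shallowest library. MYB57 had 1 count, in Col-0 normal light column 2.

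The library with the most MYB21, MYB24 and MYB108 also had the highest MYB26 (17.7 TPM), and 28 counts of DAD1, the phospholipase that starts jasmonate synthesis in late stamens, against 0 to 5 in the other 15 libraries. Its late pollen sum was 9.92 TPM, against 5.67 to 9.62 TPM in the other libraries of its group. MYB26 stayed called without it. Part of the MYB21 and MYB24 transcript sequence is not unique: 18.4% of the 31-base words of MYB21 and 40.3% of those of MYB24 occur in another RefSeq gene, chiefly genes on the opposite strand (AT3G27809 and AT3G05315 for MYB21, AT5G40348 for MYB24). MYB57 is overlapped on the opposite strand by AT3G01520. Of the MYB57 words, 1.02% occur in another gene. No source states that the libraries keep strand, so reads from the shared stretches may not tell these genes from their partners. These words were compared among RefSeq genes, and the AtRTD2 transcripts to which the reads were mapped were not checked. No gene overlaps MYB26, NST1 or MYB108, which share at most 1 such word with another gene.

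All listed genes of the jasmonate pathway above these factors were tested, although DAD1 and MYC5 were low. Over all tested genes, 29.1% rose and 28.9% fell with low light in Col-0, and 16.7% rose and 16.6% fell in bhlh89,91. Of 14 synthesis genes, 2 rose and 2 fell with low light in Col-0, and 5 rose and 2 fell in bhlh89,91. The 5 that rose in the mutant, LOX3, LOX4, AOS, AOC3 and OPCL1, all have overlapping groups and were each highest in column 2 of mutant low light, a library with a summed level of the 14 genes of 1677 TPM against 1118 to 1252 TPM in the rest of its group. Without this library, 2 rose and 1 fell. LOX2, a chloroplast lipoxygenase at the entry to the pathway, fell from 711 ± 66.9 to 327 ± 69.7 TPM in Col-0 (SD, n = 4; log2FC -1.11 ± 0.11, edgeR adjusted p = 6.54e-07). JAR1, which joins jasmonate to isoleucine to give the active hormone, also rose in Col-0, where it was 33.7 ± 7.74 and 76.8 ± 9.59 TPM in Col-0 (log2FC 1.20 ± 0.19, adjusted p = 5.24e-05). In the mutant JAR1 was 48.6 ± 12.1 and 33.7 ± 4.50 TPM, and its responses differed by -1.71 ± 0.26 (edgeR adjusted p = 0.000466). DAD1 was called in Col-0 (log2FC 3.32 ± 1.28, edgeR adjusted p = 0.0363), with 28 of its 34 low-light counts in column 2. The adjusted p was 0.0824 without Col-0 normal light column 2. DAD1 passed the filter on low values only through Col-0 low light column 2, a library of the group called higher. Its call, 1 of the 2 rises in Col-0, therefore gives no support for a rise. Between genotypes in low light, 7 synthesis genes were higher in the mutant and 2 lower, and 4 and 2 without mutant low light column 2. In this comparison 25.1% of all tested genes were called as higher and 24.3% as lower. OPCL1, a ligase of the later steps, was 18.5 ± 3.24 TPM in Col-0 and 54.4 ± 40.1 in the mutant (edgeR adjusted p = 0.00339), with mutant libraries from 23.1 to 112 TPM.

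Of 9 perception genes, all tested, 3 rose and 1 fell with low light in each genotype, and in the mutant 1 rose and 1 fell without low light column 2. The shares of all tested genes that rose and fell were 29.1% and 28.9% in Col-0 and 16.7% and 16.6% in the mutant. MYC3, a bHLH factor that carries jasmonate signalling, rose in Col-0 from 63.4 ± 4.36 to 89.2 ± 3.19 TPM (log2FC 0.50 ± 0.07, edgeR adjusted p = 1.33e-05) and was 53.7 ± 3.62 and 52.8 ± 5.18 TPM in bhlh89,91. MYC2 was 53.7 ± 12.8 and 41.9 ± 16.0 TPM in Col-0 and 32.4 ± 6.04 and 87.4 ± 49.0 TPM in the mutant, and its responses differed by 1.80 ± 0.50 (edgeR adjusted p = 0.0169). MYC5, named after its values were seen because it lies under the mean of 5 CPM required of named genes, is a bHLH partner of MYB21 and MYB24 in Arabidopsis stamens. It fell in Col-0 from 0.715 ± 0.120 to 0.148 ± 0.0788 TPM (log2FC -2.25 ± 0.33, edgeR adjusted p = 3.01e-05), and its log2FC in the mutant was -0.65 ± 0.26 (adjusted p = 0.0713).

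Floral genes that are reduced in myb21 myb24 flowers were also listed. TPS14 and TPS21 stayed under 1 CPM, and of the 3 tested, 2 fell in Col-0 and 3 in bhlh89,91 with low light. Over all tested genes, 28.9% fell in Col-0 and 16.6% in the mutant. FLS1, a flavonol synthase, went from 241 ± 42.9 to 97.1 ± 6.72 TPM in Col-0 and from 370 ± 27.7 to 149 ± 27.7 TPM in the mutant (SD, n = 4), falls of 1.30 and 1.29 on the log2 scale (edgeR adjusted p = 4.41e-07 and 2.74e-06). TPS11, a terpene synthase of flowers, fell by 0.90 in Col-0 and by 0.42 in bhlh89,91 on the same scale, and the difference of 0.48 ± 0.14 was called (adjusted p = 0.0192). These falls stood beside MYB21 and MYB24 counts that were near 0 in both light levels.

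**Figure D4:**
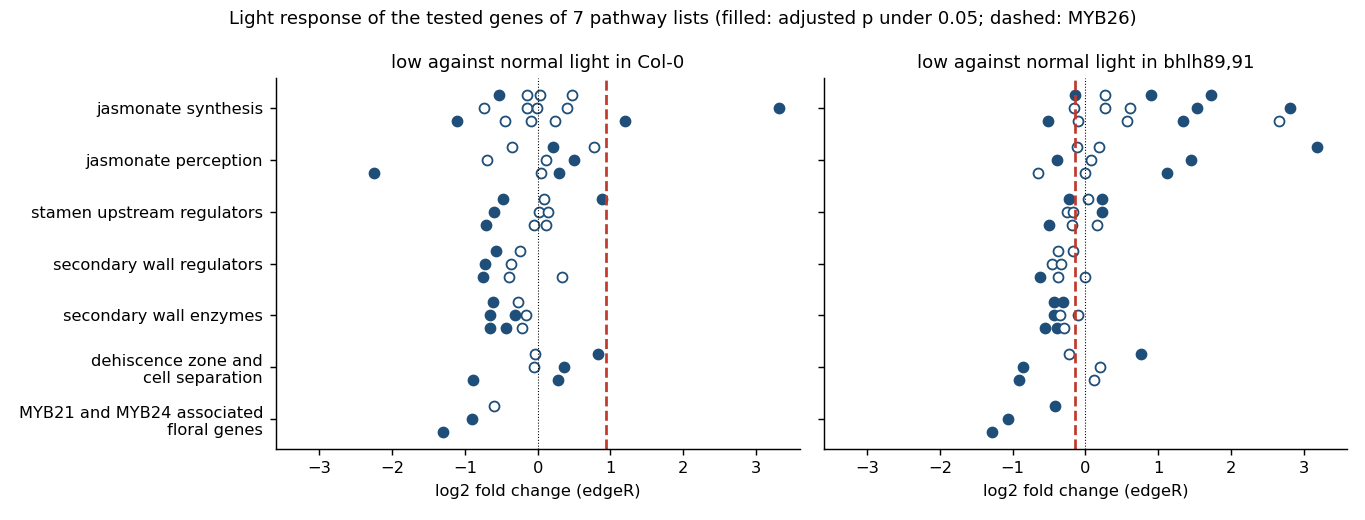
Log2 fold changes with low light (horizontal axes, edgeR) of the tested genes of 7 pathway lists (rows) in Col-0 (left) and bhlh89,91 (right), filled where the adjusted p was under 0.05, with MYB26 as a dashed line at 0.93 and -0.14. Wall regulators and enzymes have no filled point to the right of 0 in either panel. Filled points of jasmonate synthesis lie to the right for 2 genes in Col-0 (JAR1 and DAD1) and 5 in bhlh89,91. DAD1 passed the filter on low values only through Col-0 low light column 2.

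ADPG1, a pectin-cutting enzyme of the dehiscence zone, was higher in low light in Col-0 in every library, at counts too low for the filter. Its estimated counts were 3, 3, 3 and 0 in Col-0 normal light and 6, 9, 6 and 10 in Col-0 low light. In the mutant they were 3, 3, 5 and 2 in normal light and 7, 1, 5 and 2 in low light. The Col-0 groups do not overlap, which in TPM was the case in the same direction for 20.5% of the 29032 genes with any count, and the mutant groups overlap. Pooled and scaled by library totals, the Col-0 ratio was 3.46 (9 against 31 counts, exact 95% counting interval 1.61 to 8.27) and the mutant ratio 1.14 (13 against 15 counts, 0.506 to 2.60). Fitted without the filter on low counts, the Col-0 log2FC was 1.76 ± 0.58 (edgeR adjusted p = 0.0198 over 29032 genes). The difference of the light responses, -1.57 ± 0.84 in that fit, was not called (adjusted p = 0.248). In low light, the mutant had 15 counts against 31 in Col-0, a ratio of 0.496 (0.249 to 0.946), and this was not called either (edgeR adjusted p = 0.164). The counting intervals leave out the spread between libraries.

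ADPG2, which separates the same cells together with ADPG1, had 1 count, in Col-0 normal light column 4. Of 7 other genes of dehiscence zones and cell separation, 6 were tested (IND had 7 to 10 counts in each group and stayed under 1 CPM). With low light, 3 rose and 1 fell in Col-0, and 1 rose and 2 fell in bhlh89,91. The shares of all tested genes that rose and fell were 29.1% and 28.9% in Col-0 and 16.7% and 16.6% in the mutant. SHP1, a MADS factor of the fruit valve margin, rose in Col-0 from 9.27 to 13.7 TPM over the 4 normal-light libraries to 16.1 to 23.1 TPM in low light (log2FC 0.83 ± 0.20, edgeR adjusted p = 0.0022), and 3 of 4 carpel and ovule markers rose as well. QRT3, a polygalacturonase that frees microspores from the tetrad, went the other way, from 118 ± 23.6 to 63.3 ± 8.60 TPM in Col-0 and from 187 ± 30.2 to 97.9 ± 18.7 TPM in the mutant (log2FC -0.89 ± 0.15 and -0.91 ± 0.15, edgeR adjusted p = 0.000126 and 0.00032). QRT2, the polygalacturonase that acts with ADPG1 and ADPG2 in anther dehiscence, was 6.06 ± 1.47 TPM in Col-0 low light and 3.33 ± 1.13 in mutant low light (log2FC -0.84 ± 0.31, edgeR adjusted p = 0.0332). That adjusted p was 0.105 without Col-0 low light column 3. Every mutant library lay below every Col-0 library, which was a condition for naming the gene. No gene of this list was called for the difference of the light responses. For that term, 11.9% of all tested genes were called as higher and 11.1% as lower. The lack of a call among 6 genes is therefore not read as a result about the list.

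The 3 tested genes did not move together. Over the 16 libraries, log2-CPM correlated at r = 0.272 between MYB26 and MYB108, at 0.109 between NST1 and MYB108 and at 0.015 between MYB26 and NST1, values given as descriptions of libraries that share the group differences. The genes nearest to NST1 were OASB, a cysteine synthesis enzyme of plastids (r = 0.779), and AT3G53970 (0.719). For MYB108 they were AT1G62660 (0.845) and OTP81, a chloroplast RNA editing factor (0.843), each the highest of 16420 genes. AT1G62660 rose with low light in both genotypes, by 0.61 and 1.04 on the log2 scale (edgeR adjusted p = 0.000627 and 2.2e-05), and OTP81 by 0.43 and 0.44 (0.000716 and 0.00149).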

How the data were processed

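The authors mapped paired 100-base reads with Salmon to the transcript set AtRTD2 and used tximport, with length-scaled TPM, to obtain gene values. They deposited estimated counts and TPM for 33681 genes in 16 libraries. The genome build of AtRTD2 is not given in the sources used here, so positions come from RefSeq TAIR10.1 alone. Estimated counts were rounded. The 21309 genes that reached 1 CPM in any library were fitted with TMM factors (0.977 to 1.02) and 1 mean per group (12 residual degrees of freedom) by edgeR 4.0.16 in R 4.3.3, with Benjamini-Hochberg adjustment. The SE of a log2FC is its size over the square root of F. Fits with limma 3.58.1, DESeq2 1.42.0 and other settings were alternatives, and leaving out single libraries for the list counts was added after seeing the data. Medians of all log2FCs were within 0.01 of 0. On simulated Col-0 light data the pipeline found 200 of 200 genes changed by a log2FC of 1 and called 11 others among 20661 genes. The changed genes were drawn from those averaging at least 5 CPM, and every gene had the same simulated spread between libraries. This recovery therefore does not cover genes as low as NST1 (mean 1.37 CPM) and MYB108 (0.637 CPM).

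The 9 genes and all lists were chosen with earlier results of these data known. All 9 genes are named, and from each other list at most 3 genes per comparison, those with the largest absolute log2FC among called genes that average 5 CPM or more and whose groups do not overlap (overlap allowed for the interaction). Genes of similar pattern are the 2 with the highest r among tested genes of at least 5 CPM. LOX3, AOC3, DAD1, MYC5, MYB46, MYB58, MYB83 and KNAT7 were named after their values were seen.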

Additional observations from a re-analysis of the deposited data

Results flagged for a closer look

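The light response differed between genotypes, by the test of the difference itself (edgeR, adjusted p under 0.05), for MYB26 (interaction log2FC -1.07). Among the listed genes named for this term, it also differed for LOX4 (2.95), OPCL1 (2.17), JAR1 (-1.71), JAZ1 (1.82), MYC2 (1.80), MYC4 (-0.68), ARF17 (-0.72), ARF8 (0.38), CCR1 (-0.25) and TPS11 (0.48), and for the cell type markers TDF1 (0.70), DMC1 (0.49), AP3 (0.22) and SPT (-0.28). Negative values are responses that were lower in bhlh89,91 than in Col-0. The largest value, that of LOX4, was only just called (edgeR adjusted p = 0.0413) and depended on single libraries. Dropping column 2 of the mutant in low light brought it down to 1.87, which was not called (0.116 in the same test). LOX4 also lost its call when certain other libraries were dropped, and so did CCR1 (up to 0.0964).

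In 9 of 28 sets of 4 libraries with any spread, the highest or lowest library passed Dixon's 95% limit for standing apart. That limit is made for continuous values, and a set with counts in 1 library alone passes it whatever the count. The 9 of 28 sets therefore cannot be read against a chance rate. The largest value was MYB108 in Col-0 low light column 2, at 0.961 TPM (31 counts), and NST2 in Col-0 normal light column 3 reached 0.496 TPM (10 counts). The other 7 sets lie at 0 to 3 counts, and 5 of them rest on 1 count. They are MYB21 in Col-0 normal light column 3 (0.0642 TPM) and in bhlh89,91 normal light column 2 (0.0669 TPM), MYB24 in Col-0 normal light column 3 (0.0656 TPM), MYB57 in Col-0 normal light column 2 (0.0414 TPM), NST2 in bhlh89,91 low light column 4 (0.152 TPM), ADPG2 in Col-0 normal light column 4 (0.0337 TPM) and ADPG1 in Col-0 normal light column 4, which is at 0 TPM where the other 3 have 3 counts each.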

How the results depend on the processing

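MYB26 kept its direction and call in Col-0 light (log2FC 0.84 to 0.93 over the alternative methods and 0.86 to 1.02 with single libraries left out), between genotypes in low light (-0.86 to -0.79 and -0.94 to -0.79) and for the difference of the responses (-1.07 to -0.98 and -1.17 to -0.995). In Col-0 light, 29.1% of tested genes were called as higher and 28.9% as lower in the filtered fit. With no filter, 2 of the 9 genes were called there (MYB26 and ADPG1), and the share over all genes was not computed. For light in bhlh89,91, 0 were called when 1 CPM was required in at least 4 libraries or when only the groups compared were fitted, since MYB108 was then not tested, and 0 to 1 with single libraries left out (0 without bhlh89,91 normal light column 2, where MYB108 was 0.99, and 0 without Col-0 low light column 2, where it was not tested). The 7 alternative methods that tested MYB108 there all called it (adjusted p 0.0169 to 0.0366).

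NST1, never called, changed sign in 9 fits. With single libraries left out its log2FC ran from -0.55 to 0.12 for Col-0 light, from -0.39 to 0.28 between genotypes in normal light and from -0.26 to 0.025 in low light, and from -0.42 to 0.25 for the difference of the responses, with -0.0060 and -0.031 among them. That difference was also -0.081 with limma-voom, -0.017 on log2(TPM + 1) and -0.089 on log2(TPM + 0.1). The cause was not tested. Depth limits 6 of the 9 genes, whose counts never reached 1 CPM. No paired analysis was possible because the column numbers 1 to 4 do not match the replicate numbers of the labels.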
